A study of Homo sapiens with 48 samples.

Results

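The comparison described here is that of 24 h with 4 h in serum-free medium (SFM), without IGF-I, in clone #6 of the T47D-YA cells that express IRS-2. It rests on 6 of the 48 arrays of the series, 3 at each time, and covers 54613 of the 54675 probe sets on the array, all but the Affymetrix controls. T47D-YA is a human luminal breast cancer line without insulin receptor substrate (IRS) proteins of its own, and the series holds 4 sublines of it, the IRS-1 clones #10 and #20 and the IRS-2 clones #1 and #6, each 4 h and 24 h after IGF-I or in SFM. All cells had already spent 24 h in SFM before time 0, and according to the methods the control dishes then received SFM with fibronectin (SFM+FN) alone. The 4 h and 24 h SFM arrays therefore differ both in the hours without serum or IGF-I and in the hours since SFM+FN was given. These cannot be told apart here. Every difference below is 24 h minus 4 h. The subline is 1 clone, the labels do not say that arrays A, B and C came from separate cultures, and p-values therefore measure only the spread between arrays, which may be technical.

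Values are the deposited log2 signals of Affymetrix HG-U133 Plus 2.0 arrays, on which a difference of 1 is a 2-fold change. A probe set or gene is said to have risen or fallen at a Benjamini-Hochberg adjusted p under 0.05 in limma, over all 54613 probe sets, together with at least a 1.5-fold difference, which is 0.585 on the log2 scale. The 6 arrays had medians of 7.40 to 7.48, and they correlated at 0.997 to 0.998 within a time and at 0.994 to 0.996 between times. The 14 luminal epithelial markers measured averaged 12.46 to 12.63 on the 6 arrays, while 9 basal and mesenchymal, 9 fibroblast and 8 leukocyte markers averaged 7.19 to 7.27, 7.24 to 7.48 and 6.83 to 7.16, close to the array medians. No marker of these last 3 lists rose or fell, where 0.511% of all genes rose and 0.137% fell. The IRS2 gene gave 6.96 ± 0.068 at 4 h and 6.81 ± 0.071 at 24 h (SD, n = 3 each), near the array median, and nothing in the files places its probe sets inside or outside the transferred sequence, so the label alone names the clone. Of the RNA controls, the 3-prime minus 5-prime difference of ACTB was -0.006 apart between the times and that of GAPDH 0.053 apart (exact permutation tests, two-sided, p = 0.8 and 0.1, the smallest p that 3 against 3 arrays can give being 0.1). The nuclear RNA MALAT1 gave 11.41, 11.54 and 11.51 at 4 h and 12.20, 12.23 and 11.63 at 24 h, so that replicate C of the 24 h arrays stood apart from the other two. The part of RNA quality or of that array in the results was not tested beyond the counts given without it.

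Interferons are secreted proteins that cells make on sensing viral nucleic acid, and they act through cell-surface receptors and Janus kinases on a broad set of interferon-stimulated genes. Many of these genes carry an interferon-stimulated response element (ISRE) near their start, and breast cancer lines differ in how strongly they express them at rest. The aryl hydrocarbon receptor (AhR) drives CYP1A1 and CYP1B1 in response to ligands that include compounds of serum and medium, and the estrogen receptor drives a separate set of genes in luminal cells. IRS proteins link the IGF-I receptor to the PI3K and ERK pathways, and DUSP and SPRED proteins are feedback brakes on ERK that are themselves induced by it.

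Between 4 h and 24 h in SFM, 216 probe sets rose and 47 fell, 0.396% and 0.0861% of those tested. With 1 probe set for each of 19775 genes, 101 genes rose and 27 fell, 0.511% and 0.137%. Among these genes IFI44L, CFB and S100A8 rose most, 3.15-fold, 3.08-fold and 3.07-fold, and CYP1A1, PDZK1 and CYP1B1 fell most, 6.13-fold, 3.45-fold and 2.91-fold. At least 2-fold differences were reached by 26 of the genes that rose and 3 of those that fell. None of the 128 genes had overlapping arrays at the 2 times, which was so for 35.5% of all genes tested. The median difference over all genes was -0.019, and without the fold threshold 6983 probe sets, 12.8% of those tested, passed the adjusted p alone. A gene counted by any of its probe sets of a single symbol would give 141 genes higher and 35 lower, with none in both directions.

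**Figure D1:**
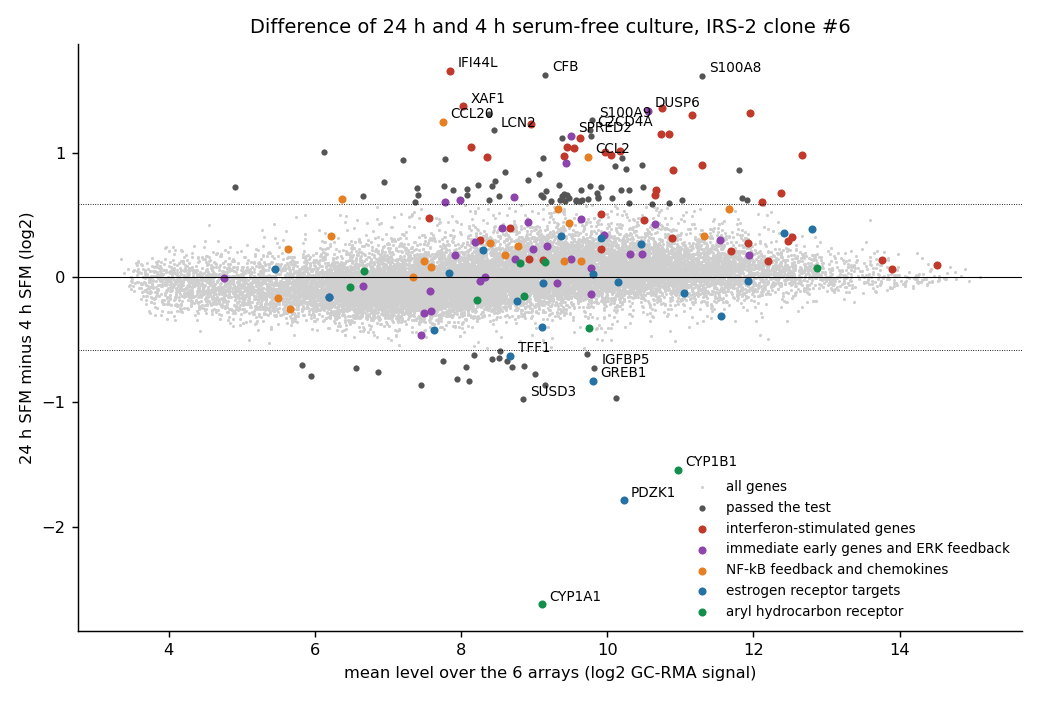
Each point is a gene, placed by its mean log2 level over the 6 SFM arrays of IRS-2 clone #6 (horizontal) and its difference of 24 h minus 4 h (vertical, log2), with genes that passed the test in dark grey, 5 gene lists in colour and dotted lines at 1.5-fold. The interferon-stimulated genes lie above 0 at all levels, and CYP1A1, PDZK1 and CYP1B1 stand far below the other genes.

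The interferon-stimulated genes were the largest group among the rises that any list described. Of 41 measured, 24 rose and 0 fell, against 0.511% of all genes that rose, and all 41 differences were above 0, with a median of 0.70 and a range of 0.06 to 1.66. A further 13 had an adjusted p under 0.05 below the fold threshold, which makes 37 in all, where 12.8% of all probe sets passed the adjusted p. On the 3 arrays of 4 h the mean over the 41 genes was 10.09, 10.25 and 10.22, and on the 3 arrays of 24 h it was 10.87, 10.96 and 10.89. The times did not overlap on this mean, and replicate A was the lowest array at both.

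IFI44L, whose protein is cytosolic and interferon-induced, had levels of 6.79, 7.17 and 7.10 at 4 h and of 8.61, 8.77 and 8.65 at 24 h. Its difference was 1.66 (SE 0.12, limma adjusted p = 2.17e-15), and array A was the lowest of the 4 h arrays. XAF1, a binding partner of the apoptosis inhibitor XIAP, went from 7.24, 7.35 and 7.44 to 8.51, 8.95 and 8.69, a rise of 1.37 in which 1 of its 3 probe sets had no part, with 0.10. IFIT3 and IFIT1, RNA-binding proteins that hold back viral translation, rose by 1.35 and 1.32, IFIT1 from 11.07, 11.43 and 11.39 to 12.64, 12.65 and 12.55. In both IFIT genes array A of 4 h was the lowest and the 24 h arrays lay close together. OAS2, OAS1 and OAS3, which make the 2-5A messenger that activates RNase L, rose by 1.30, 1.15 and 0.90. OAS2 stood at 10.41, 10.60 and 10.51 at 4 h and at 11.75, 11.81 and 11.86 at 24 h, the most precise of these rises (SE 0.057, adjusted p = 8.79e-23), with every probe set of OAS1 and OAS2 past the test. RSAD2, which encodes the antiviral enzyme viperin, rose by 1.23 from 8.31, 8.36 and 8.36 to 9.62, 9.66 and 9.45, and its neighbour CMPK2, a mitochondrial nucleotide kinase, by 1.31 from 7.40, 7.85 and 7.93 to 9.06, 9.08 and 8.98. The 4 h arrays of CMPK2 were the most spread of these genes, with A lowest, and still did not reach its 24 h levels.

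By role, the rises took in the RNA sensors IFIH1 (1.04) and RIGI (0.66) and the transcription factors IRF7 (1.01) and IRF9 (0.70), which bind the promoters of such genes. They also took in the ubiquitin-like modifier ISG15 (1.15), its conjugating enzyme UBE2L6 (0.60) and its protease USP18 (0.73), and the GTPases MX1 (0.98) and GBP1 (0.97). Members that did not pass included the class I antigen presentation genes HLA-B (0.10), HLA-C (0.06) and PSMB8 (0.32) and the membrane protein genes IFITM3 (0.29) and BST2 (0.32). The interferons and their receptors were looked at in a list added after the values were seen. None of its 17 measured members rose or fell, against 0.511% and 0.137% of all genes. IFNB1 gave 5.95 ± 0.27 at 4 h and 5.49 ± 0.14 at 24 h (SD, n = 3 each), -0.46 apart (adjusted p = 0.00561, under the fold threshold), and the lambda interferon IFNL1 gave 6.97 and 6.98, all below the array medians. The receptor genes IFNGR2 (0.34, adjusted p = 2.46e-08), IL10RB (0.31, adjusted p = 0.000423) and IFNGR1 (0.27, adjusted p = 5.49e-05) passed the adjusted p below the fold threshold, and IFNAR1 differed by 0.12 (adjusted p = 0.178). In a second added list of 18 signalling genes 3 rose, against 0.511% of all genes, USP18 and the factors IRF7 and IRF9 named above, all known to be interferon-induced themselves, while JAK1 differed by 0.02 and TYK2 by 0.21.

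The ISRE was looked for as the letters TTTCNNTTTC, on both strands, in the RefSeq promoter windows of GRCh38.p14 that reach from 250 bases before to 50 after each gene's start. Of 33 interferon-stimulated genes with a window in the table, 19 held a match, as did 12 of the 20 that rose, 60.0%. Of all 27305 promoters tabulated, 3.65% held one, and of the windows of the genes tested 2.94%. Among the 77 promoters of genes that rose 24 held a match, 12 of them outside the list, in CFB, C2CD4A, TNFSF10, CXCL10, DDX60L, IFIT5, PLSCR1, DTX3L, PARP14, PHLDB2, EPSTI1 and PARP12. None of the 20 promoters of genes that fell held one. The windows of XAF1, OAS1, RSAD2 and CMPK2 held no match to these letters, and OAS2 had no entry. The sequences below are those of the 5 genes among the 15 largest rises that held a match, the 230 bases up to the start on the strand of the gene, with the matches in capitals. The windows lie at chr1:78620218-78620447 for IFI44L, chr10:89327767-89327996 for IFIT3, chr10:89392393-89392622 for IFIT1, chr6:31945865-31946094 for CFB and chr15:62066747-62066976 for C2CD4A, all on the plus strand.
IFI44L: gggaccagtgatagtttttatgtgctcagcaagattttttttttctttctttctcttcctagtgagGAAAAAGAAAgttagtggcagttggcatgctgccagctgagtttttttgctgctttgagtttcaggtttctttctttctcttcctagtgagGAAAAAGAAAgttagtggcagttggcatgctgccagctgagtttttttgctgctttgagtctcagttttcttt
IFIT3: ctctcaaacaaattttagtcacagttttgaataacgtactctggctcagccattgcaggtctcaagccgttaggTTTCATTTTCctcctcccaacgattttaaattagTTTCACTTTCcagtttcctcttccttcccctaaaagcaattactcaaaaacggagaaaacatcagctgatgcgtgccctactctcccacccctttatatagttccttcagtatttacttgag
IFIT1: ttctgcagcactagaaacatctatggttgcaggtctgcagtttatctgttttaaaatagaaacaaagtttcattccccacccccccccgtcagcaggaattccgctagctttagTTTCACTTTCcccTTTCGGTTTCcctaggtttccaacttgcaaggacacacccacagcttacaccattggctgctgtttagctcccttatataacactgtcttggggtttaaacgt
CFB: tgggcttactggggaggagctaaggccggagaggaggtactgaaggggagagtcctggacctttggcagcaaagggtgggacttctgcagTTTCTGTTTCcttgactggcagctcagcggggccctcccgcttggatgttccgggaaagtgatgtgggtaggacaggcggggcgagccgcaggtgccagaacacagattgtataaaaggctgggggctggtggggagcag
C2CD4A: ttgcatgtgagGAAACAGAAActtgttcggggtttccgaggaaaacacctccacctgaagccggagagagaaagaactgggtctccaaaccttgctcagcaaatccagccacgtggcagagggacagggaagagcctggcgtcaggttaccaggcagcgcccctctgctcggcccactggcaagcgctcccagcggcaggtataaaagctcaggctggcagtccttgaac
The match of CFB begins 140 bases before its start and that of C2CD4A 219 bases, while IFI44L has matches at 164 and 73, IFIT3 at 156 and 122 and IFIT1 at 116 and 103 bases. A match describes letters and says nothing on binding in these cells.

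Genes of epithelial defence and chemokines were also among the large rises. CFB, complement factor B of the alternative pathway, stood at 8.30, 8.39 and 8.31 at 4 h and at 9.91, 10.02 and 9.94 at 24 h, a rise of 1.62 (SE 0.069, adjusted p = 3.44e-23), although its dimmer probe set differed by only 0.53. S100A8 and S100A9, which together form calprotectin, rose by 1.62 and 1.26. S100A8 went from 10.48, 10.45 and 10.51 to 12.10, 12.17 and 12.03 and S100A9 from 9.18, 9.09 and 9.20 to 10.41, 10.50 and 10.34. Within each time the arrays of both genes lay close together, and both were highest on array B of 24 h. LCN2, the iron-sequestering lipocalin, rose by 1.18 from 7.898, 7.832 and 7.834 to 9.018, 9.084 and 9.003. With PI3, the elastase inhibitor elafin (0.71), that made 5 of 17 measured genes of an antimicrobial and acute phase list that rose, against 0.511% of all genes, and PLAC8 fell, by 0.59, against 0.137%. C3 (0.56, adjusted p = 2.21e-09) and SLPI (0.43) lay below the fold threshold, and CHI3L1 (0.03) and HP (0.08) did not pass either, although the dimmest of 3 CHI3L1 probe sets, at a mean level of 4.17, rose by 1.18 (adjusted p = 8.11e-12). This list was also written after the values were seen, and its count describes these genes without testing the list.

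Of 19 genes of NF-kB feedback and chemokines, CCL20, CCL2 and CXCL1 rose, against 0.511% of all genes, and the median of the list was 0.25. CCL20, the ligand of CCR6, rose by 1.25 from 6.995, 7.198 and 7.190 to 8.426, 8.451 and 8.252. CCL2, a monocyte attractant, rose by 0.97 from 9.22, 9.23 and 9.29 to 10.22, 10.23 and 10.20, with the least spread of the 3 chemokines. CXCL1 lay below the array medians, at 6.01, 5.94 and 6.22 and then at 6.50, 6.81 and 6.76, and its rise of 0.63 was 0.57, under the fold threshold, without replicate B of either time. The interferon-inducible chemokines CXCL10 and CXCL11, not in that list, rose by 0.96 and 0.72, and TNFSF10, the death ligand TRAIL, by 1.12. Of 10 measured MHC class II genes, a list also added after the values were seen, HLA-DRA (0.83) and HLA-DPA1 (0.66) rose, against 0.511% of all genes, CD74 (0.58, adjusted p = 2.05e-06) lay just under the fold threshold and their transcriptional activator CIITA differed by -0.13 (adjusted p = 0.363).

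Feedback regulators of ERK signalling rose as well. Of 33 immediate early and ERK feedback genes 6 rose and 0 fell, against 0.511% of all genes that rose, with a list median of 0.19, and 3 rose when the probe sets of each gene were averaged. DUSP6, an ERK-specific phosphatase, stood at 9.75, 9.98 and 9.92 at 4 h and at 11.12, 11.23 and 11.31 at 24 h. Its 3 probe sets all passed the test, with rises of 1.29 to 1.46. SPRED2, an inhibitor of RAS-RAF signalling, went from 8.79, 9.04 and 8.97 to 10.04, 10.10 and 10.07, a rise of 1.14 that only 1 of its 3 probe sets showed above the fold threshold. DUSP5, a nuclear ERK phosphatase, rose by 0.92 on its single probe set, from 8.91, 9.05 and 8.95 to 9.83, 9.92 and 9.91. The remaining members that rose were ETV5 (0.65), SPRED1 (0.62) and DUSP4 (0.60), and IL17RD, another ERK feedback inhibitor that was singled out after its value was seen, rose by 0.62. CCND1, the G1 cyclin that ERK signalling raises, gave 9.08, 9.27 and 9.05 and then 9.61, 9.58 and 9.77, so that the times did not overlap, but its difference of 0.52 (adjusted p = 2.74e-07) lay below the fold threshold and passed it, at 0.59, without replicate B of 4 h. Array A of 4 h was the lowest for DUSP5, DUSP6 and SPRED2, as it was for the mean over the interferon-stimulated genes.

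**Figure D2:**
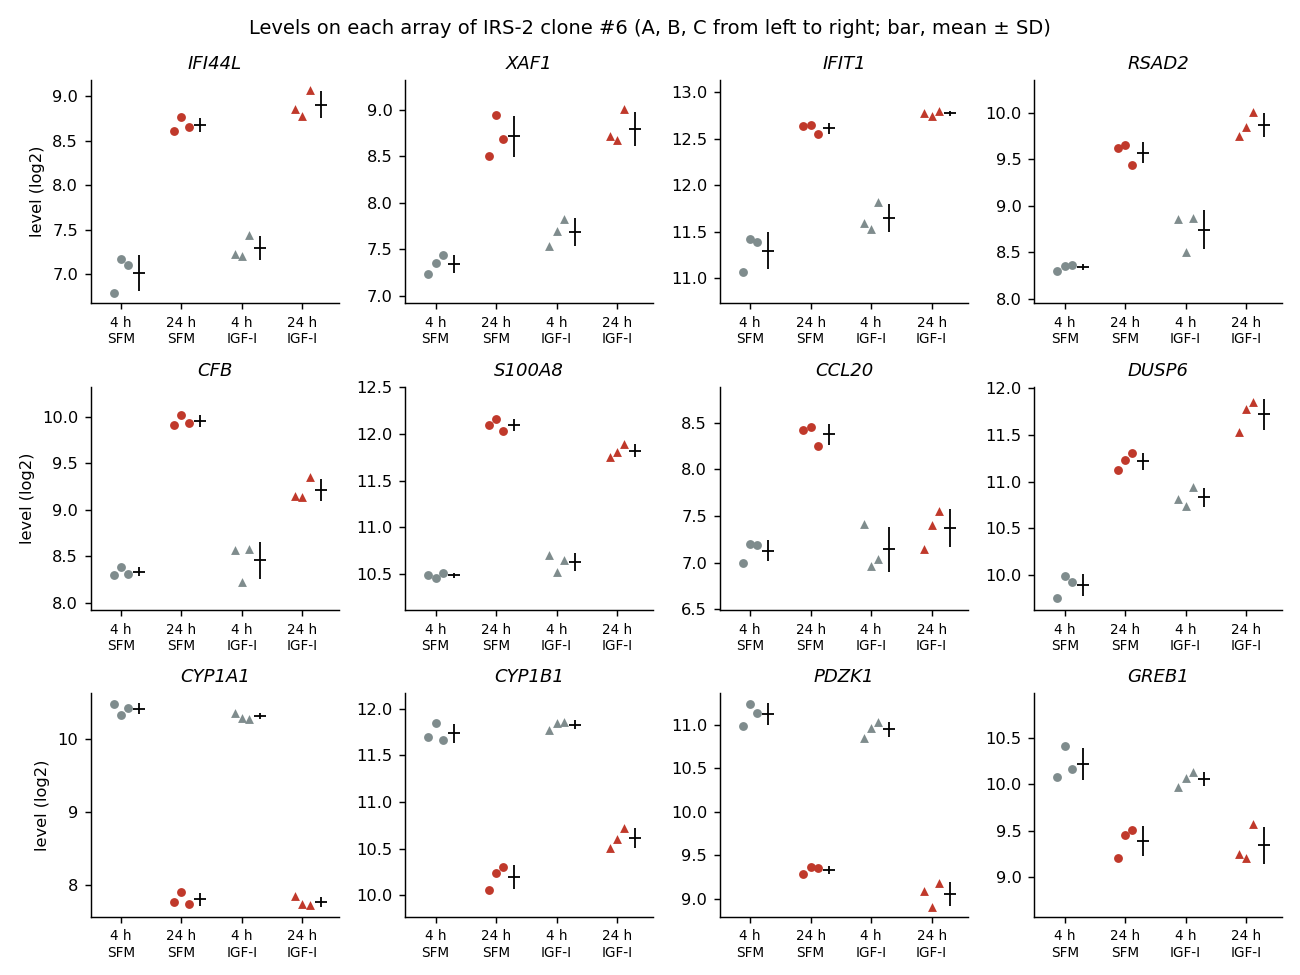
Log2 levels of 12 genes on each array of IRS-2 clone #6, at 4 h (grey) and 24 h (red) in SFM (circles) and with IGF-I (triangles), arrays A, B and C from left to right, with the mean ± SD of 3 arrays beside them and an axis of its own for each gene. The 12 were picked from the genes that passed the test in SFM, none of which had overlapping times, so their lack of overlap in SFM follows from that choice. Of all genes tested, 35.5% had no overlap. CCL20 is high at 24 h in SFM but not with IGF-I.

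The deepest fall was that of a gene of xenobiotic metabolism. CYP1A1, the oxidase that serves as the standard readout of AhR activity, stood at 10.48, 10.33 and 10.43 at 4 h and at 7.76, 7.90 and 7.73 at 24 h. Its difference of -2.62 (SE 0.079, adjusted p = 4.89e-29) brought it from well above the array medians to near them. CYP1B1 fell by 1.54, from 11.70, 11.85 and 11.67 to 10.06, 10.23 and 10.31, and all 4 of its probe sets fell. Of the 10 AhR genes measured only these 2 fell, against 0.137% of all genes, and the list median was -0.11. TIPARP, a repressor of AhR that is also its target, differed by -0.40 (adjusted p = 9.92e-07), with 9.93, 9.98 and 9.94 at 4 h and 9.56, 9.54 and 9.52 at 24 h, which do not overlap. CYP1A1 and CYP1B1 fell in the SFM arrays of the other clones too, with differences of -2.85 and -2.30 for IRS-1 #10, -2.20 and -1.77 for IRS-1 #20, and -3.67 and -1.89 for the other IRS-2 clone. The fall of CYP1A1 was smaller in clone #6 than in IRS-2 #1 by 1.06 (limma contrast, adjusted p = 7.33e-08).

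Of 21 estrogen receptor targets, PDZK1, GREB1 and TFF1 fell, against 0.137% of all genes, and 0 rose, with a list median of -0.04. At the adjusted p alone, which 12.8% of all probe sets passed, 6 of the targets were higher and 6 lower. PDZK1, a scaffold protein of transporters, had 10.99, 11.24 and 11.13 at 4 h and 9.28, 9.36 and 9.36 at 24 h, a difference of -1.79 (SE 0.093, adjusted p = 7.33e-20). GREB1, a cofactor of the estrogen receptor, fell by 0.83 from 10.08, 10.41 and 10.16 to 9.21, 9.46 and 9.51, on 1 of its 3 probe sets. TFF1, the secreted trefoil peptide, fell by 0.63 from 8.84, 9.06 and 9.07 to 8.34, 8.40 and 8.33. ESR1 itself differed by -0.08 (adjusted p = 0.365), and PGR, a further target, by 0.36 on its brighter and by -0.48 on its other probe set, neither past the fold threshold. Outside the lists, SUSD3 and its neighbour FGD3 fell by 0.98 and 0.71, OLFM1 by 0.97, the neuropeptide Y receptor NPY1R by 0.83, the fatty acid elongase ELOVL2 by 0.86 and the adrenergic receptor ADRA2A by 0.81. Of these, 1 of the 2 probe sets of SUSD3 and of ELOVL2 and 2 of the 3 of OLFM1 passed. SUSD3 went from 9.23, 9.38 and 9.41 to 8.34, 8.50 and 8.24 and NPY1R from 8.41, 8.59 and 8.57 to 7.63, 7.75 and 7.71. Neither overlapped between the times. IGFBP5, an IGF-binding protein, fell by 0.72 on the brightest of its 6 probe sets and on none of the other 5, and INHBE, an inhibin subunit induced by ATF4, fell by 0.79. MPPED2 (-0.86), CYP2B7P (-0.78), ELOVL2-AS1 (-0.76) and KCNQ5 (-0.73) completed the 15 largest falls. A probe set that carries the symbols of both CYP2B7P and CYP2B6, and so counts for neither, differed by -1.63 (limma adjusted p = 8.79e-23), more than CYP1B1.

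Most gene lists held no gene that rose or fell. Since 0.511% of all genes rose and 0.137% fell, lists of this size would hold few or none at that share. None of 32 mitotic, 31 DNA replication or 15 replication-dependent histone genes rose or fell, and their medians were -0.05, 0.04 and 0.11. No measured member of the G1 cyclin and CDK inhibitor, cholesterol synthesis, fatty acid synthesis, LXR, heat shock, NRF2, hypoxia, FOXO, autophagy, p53, SRF and YAP, integrin, EGF family, glucocorticoid and progesterone, metal, tRNA synthetase, oxidative phosphorylation or apoptosis lists did either. A pair of probe sets that carry the symbols of both LINC02478 and the integrin gene ITGB6, and so count for neither, rose by 0.81 and 0.64. Ribosome biogenesis showed a small difference in 1 direction, with none of its 21 genes above 0, a median of -0.18 and 11 at an adjusted p under 0.05, led by WDR12 (-0.42, adjusted p = 8.07e-09) and NOP16 (-0.35). All 18 ER chaperone genes lay above 0, with a median of 0.14 and 9 past the adjusted p, led by XBP1 (0.39). None of these genes reached the fold threshold. At the adjusted p alone 12.8% of all probe sets passed, 4341 higher and 2642 lower, and the median over all genes was -0.019. Single members rose in the TGF-beta pathway list (BMP7, 0.62, on 1 of 4 probe sets) and in the circadian list (BHLHE40, 0.61), against 0.511% of all genes. Of the 15 genes measured that the study names, GBP1 rose and 0 fell, against 0.511% and 0.137% of all genes. Since some of them were chosen on arrays of this series, the list is no independent evidence. TNFRSF12A (0.55), TGFB1 (0.33), ADM (0.18), SMAD2 (0.14), MYBL2 (0.11), CDKN2B (0.11), IGF1R (0.04), TGFB2 (0.00), IRS1 (-0.06) and SLC7A11 (-0.20) did not pass.

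**Figure D3:**
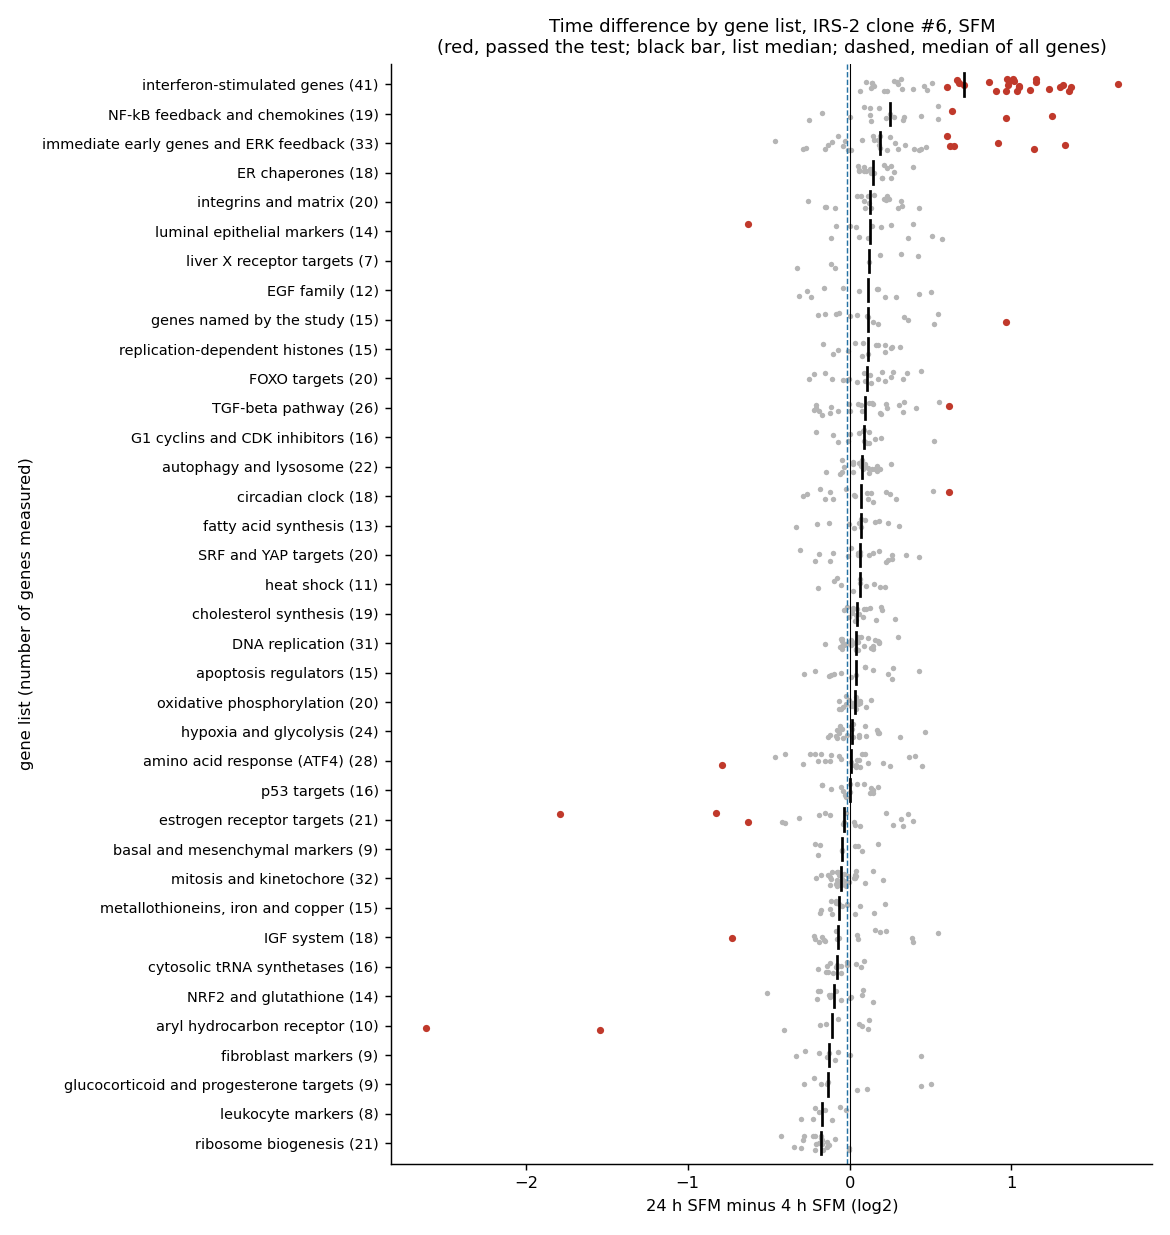
Differences of 24 h minus 4 h in SFM (log2, horizontal) of each measured gene of 37 lists in IRS-2 clone #6, ordered by list median (black bars), with the genes that passed the test in red and the median of all genes dashed. The interferon-stimulated list has a median of 0.70 and all of its genes above 0, and no other list has a median above 0.25.

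Some of the genes that moved lie next to each other. Of 122 protein-coding genes among them with a place in the RefSeq gene order, 19 were direct neighbours of another that moved in the same direction, in 9 runs. These were OAS1, OAS3 and OAS2 on chromosome 12, IFIT2 with IFIT3 and IFIT1 with IFIT5 on chromosome 10, IFI44L with IFI44 on chromosome 1, CMPK2 with RSAD2 on chromosome 2, PARP9 with DTX3L on chromosome 3, CXCL10 with CXCL11 and DDX60 with DDX60L on chromosome 4, and SUSD3 with FGD3 on chromosome 9. All runs but the last rose. No share by chance was worked out for these neighbours, and signals of related genes such as those of the IFIT and OAS families are kept apart only as far as the probes allow.

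The same hours in SFM moved fewer interferon-stimulated genes in the other clones. Of the 41 genes, 12 rose in clone #20, 4 in clone #1 and 0 in clone #10, where 0.167%, 0.167% and 0.00506% of all genes rose, with medians of 0.39, 0.16 and 0.09 against 0.70 in clone #6. In a direct contrast of clone #6 with the mean of the other 3 clones, 19 of the 41 differed, all higher in clone #6. That contrast called 159 probe sets higher and 13 lower in clone #6 (0.291% and 0.0238%), or 53 and 4 genes (0.268% and 0.0202%). IFI44L rose by 1.66 in clone #6 and by 1.27 in clone #20, with 0.45 in clone #1 and 0.18 in clone #10, which put clone #6 1.02 above their mean. CFB was 1.25, S100A8 1.16, CCL20 1.03 and LCN2 0.97 above the mean of the others. All 4 rose in the other IRS-2 clone as well, S100A8 by 1.12, CFB by 0.90, LCN2 by 0.67 and CCL20 by 0.60, and of the 4 only CFB passed the direct contrast with that clone. In clones #10 and #20 S100A8 lay at 0.25 and 0.01. GBP1 and CCL2 were higher by 0.64 and 0.59 (adjusted p = 0.00012 and 1.85e-05). INHBE (-0.64), ADRA2A (-0.61), LINC02240 (-0.68) and HHIP (-0.64) were the 4 genes lower in clone #6 than in the mean of the others, and HHIP and LINC02240 did not pass the fold threshold within clone #6 (-0.46 and -0.47). At 4 h INHBE stood at 6.34 in clone #6 and at 5.25 to 5.61 in the others, all below the array medians. The 172 probe sets of this contrast became 108 without replicate A and 277 without replicate B of the 4 h arrays, and 95 without replicate B and 290 without replicate C of the 24 h arrays.

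The clones did not start from the same level. The mean over the 41 interferon-stimulated genes at 4 h in SFM was 10.19 ± 0.086 in clone #6, 9.47 ± 0.083 in clone #1, 11.11 ± 0.067 in clone #20 and 11.38 ± 0.034 in clone #10 (SD, n = 3 each). At 24 h it was 10.91 ± 0.048, 9.67 ± 0.051, 11.50 ± 0.060 and 11.47 ± 0.058. The 24 h arrays of clone #6 therefore stayed below the 4 h arrays of both IRS-1 clones, from 10.87 to 10.96 against 11.03 to 11.15 in clone #20 and 11.35 to 11.41 in clone #10. These means describe the list and carry no test, and with 2 clones per isoform the differences between clones cannot be told apart from IRS isoform, clone or culture.

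**Figure D4:**
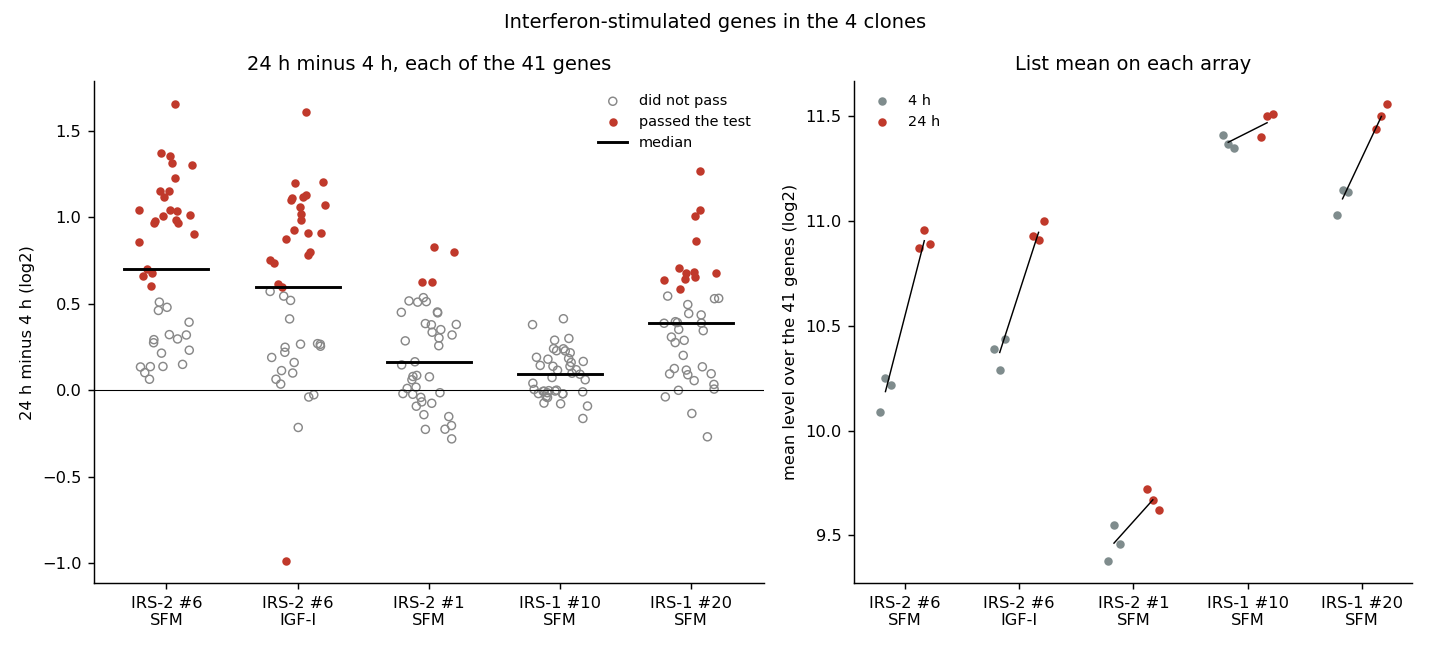
Left, difference of 24 h minus 4 h (log2) of each of the 41 interferon-stimulated genes in clone #6 in SFM, in clone #6 with IGF-I and in the other 3 clones in SFM, with genes that passed the test filled and medians as bars. Right, the mean log2 level over the 41 genes on each array at 4 h (grey) and 24 h (red), joined at the group means; clone #6 in SFM goes from 10.19 to 10.91 and stays below both IRS-1 clones.

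Against the other IRS-2 clone alone, 54 probe sets were higher and 10 lower in clone #6 (0.0989% and 0.0183%), or 30 and 4 genes (0.152% and 0.0202%). The 64 probe sets became 124 without replicate B of the 4 h arrays. Of the 41 interferon-stimulated genes 15 were higher and 0 lower in clone #6, among them IFI44L (1.20), GBP1 (0.88), XAF1 (0.83) and RSAD2 (0.78). DUSP6 (0.835), CFB (0.72) and CCL2 (0.69) were also among the genes whose difference was higher in clone #6, and INHBE (-0.72) among those lower. Of the 27 genes that fell in clone #6, 17 also fell in clone #1, 10 in clone #20 and 2 in clone #10, where 0.162%, 0.374% and 0.0152% of all genes fell, while 28, 29 and 0 of the 101 that rose also rose there. Whether these shares differ was not tested. Across genes, the differences of clone #6 correlated with those of clone #10 at 0.443, of clone #1 at 0.435 and of clone #20 at -0.0128 (Pearson, 19775 genes that share arrays within each clone and are not independent). PDZK1 differed by -1.68 in clone #20 and by -2.00 in clone #1, both past the test, and by -0.20 in clone #10. In clone #10 it stood at 5.22 at 4 h, below the array medians, against 11.12 in clone #6. Whether its level bears on the difference was not tested.

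The IGF-I arrays of clone #6 give the same 2 times on arrays that share none with the SFM comparison. From 4 h to 24 h with IGF-I, 61 genes rose and 61 fell, 0.308% each, and 46 of the 101 genes that rose in SFM and 18 of the 27 that fell did so there too. Of the same genes, 96 of the 101 lay above 0 and all 27 below 0 with IGF-I, and the 2 time differences correlated at 0.626 across genes. Of the 41 interferon-stimulated genes 21 rose and 1 fell with IGF-I, with a median of 0.60. IFI44L rose by 1.61 and OAS2 by 1.20 with IGF-I, CYP1A1 fell by 2.55 and PDZK1 by 1.89, and for none of these 4 did the direct contrast of the 2 time differences pass.

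A direct contrast of the time difference with IGF-I minus that in SFM, which uses all 12 arrays of the clone, called 6 probe sets higher and 125 lower (0.011% and 0.229%), or 2 and 57 genes (0.0101% and 0.288%). Of the 101 genes that rose in SFM, 13 were among those lower: C2CD4A, CCL2, CCL20, CFB, CXCL10, CYP4Z2P, GBP1, HLA-DRA, KMO, RIPOR3, SPRED1, SPRED2 and TNFRSF11B. The 101 were chosen for a high difference on the same SFM arrays, and the contrast subtracts that difference. Their choice alone therefore favours lower values, and the count of 13 is no independent evidence. GBP1 was the gene of the interferon list that fell with IGF-I, by 0.98. It stood at 7.87 ± 0.23 and 8.84 ± 0.13 in SFM and at 10.20 ± 0.081 and 9.21 ± 0.15 with IGF-I at 4 h and 24 h (SD, n = 3 each). CCL2 was already at 10.59 ± 0.20 at 4 h with IGF-I and at 10.33 ± 0.088 at 24 h, against 9.25 ± 0.035 and 10.22 ± 0.017 in SFM, so the SFM arrays approached the level of the IGF-I arrays at 24 h. SPRED2 had the same order, with 9.84 and 10.20 with IGF-I against 8.93 and 10.07 in SFM. CCL20 and CFB differed in another way, since both stood near their SFM level at 4 h with IGF-I (7.14 and 8.46) and below it at 24 h (7.37 and 9.21 against 8.38 and 9.95). TGFB2 and CDKN2B, with 0.00 and 0.11 in SFM, fell by 2.02 and 1.07 with IGF-I from levels of 9.40 and 7.80 at 4 h.

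**Figure D5:**
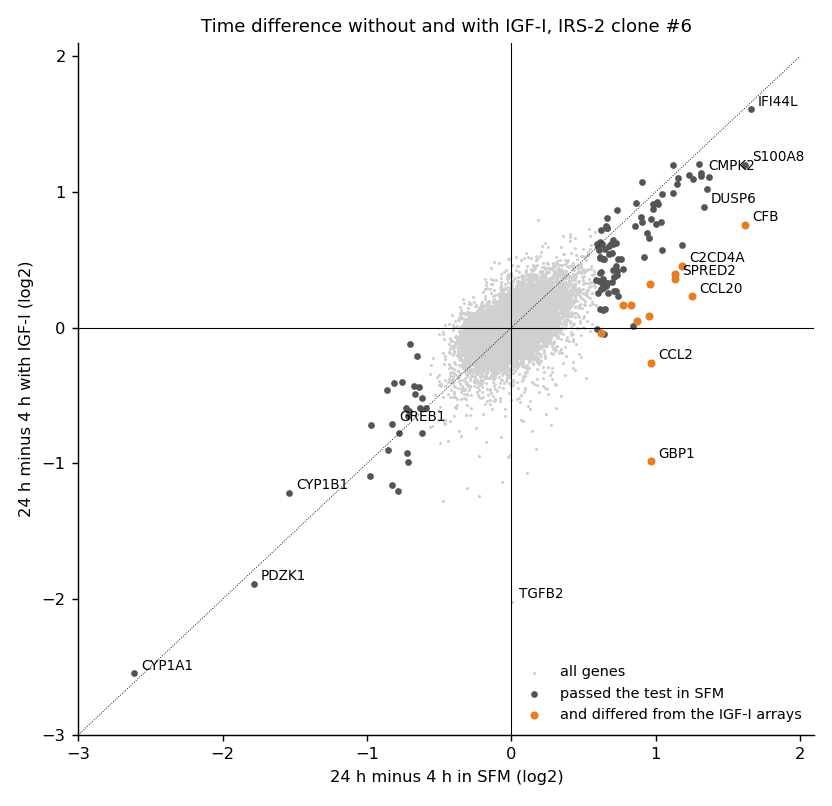
Difference of 24 h minus 4 h in SFM (horizontal, log2) and with IGF-I (vertical, log2) for each gene in IRS-2 clone #6, with genes that passed the test in SFM in dark grey, those of them that also differed between SFM and IGF-I in orange and the dotted line at equal values. CYP1A1, PDZK1 and IFI44L lie near the line, and GBP1 and CCL2 lie below 0 with IGF-I.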

How the data were processed

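Expression was measured on HG-U133 Plus 2.0 arrays, 3 per group in 16 groups. The authors made the probe set values by GC-RMA with the GeneData Refiner software according to their methods, and GCRMA also stands in the submitters' processing notes. The values as deposited are log2 signals from 3.13 to 15.36, normalized between arrays but not set against the untreated state. Signal over background is unknown without raw intensities, and the number of arrays limits the precision. Which of the RNA kits in the protocol served which array is not given in the sources used here.

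The 54613 probe sets without Affymetrix controls went into limma 3.58.1 (R 4.3.3), in 1 model of group means over all 48 arrays with variances with an intensity trend (32 residual degrees of freedom), and p-values were adjusted by Benjamini-Hochberg. Symbols are those of the platform annotation: of the probe sets tested 41091 have 1 symbol, 1801 several and 11721 no symbol, and 41037 were found in the reference table by Entrez identifier. A gene is represented by its probe set of highest mean over all arrays. Named are the 15 largest rises and 15 largest falls, up to 3 members of each of 37 lists, the 5 largest differences per direction from the other clones and the genes the study names; others were named after their values were seen. The part described, its members and lists were chosen with earlier results of these data known, and 4 lists were added later. On simulated data 84% of 1.6-fold and 100% of 2-fold changes among 54613 probe sets were recovered in this comparison, with 0 wrong calls. The simulated noise was normal and independent for each probe set. The simulation therefore says nothing on wrong calls from shifts shared across a whole array. Promoters were read from a RefSeq table (GRCh38.p14) with Python 3.11.15, pandas 2.3.3 and numpy 2.4.6, and figures drawn with matplotlib 3.10.9. The same-letter deviations of the 4 h and 24 h arrays correlated at -0.0162, 0.28 and 0.0823, so replicate letters were not taken as pairs. Alternatives were a filter on dim probe sets (kept at a log2 of 5 or more on 3 or more arrays), quantile normalization, median centring, no trend, a fit to the 6 arrays, other fold thresholds, probe sets averaged per gene, the methods' t-test, the letter as a block and each array left out.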

Additional observations from a re-analysis of the deposited data

Results flagged for a closer look

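The time difference of clone #6 in SFM differed by a limma contrast from that of other groups in 172 probe sets (mean of the other 3 clones), 64 (IRS-2 #1) and 131 (its own IGF-I arrays). Among the genes named, 21 differed from the mean of the other 3 clones, where 0.268% of all genes were higher and 0.0202% lower. Some were named because they passed this contrast, and most others for their change on the same SFM arrays of clone #6. The 21 therefore describe these genes and are no independent evidence. Higher in clone #6 were the interferon-stimulated genes IFI44L by 1.02, XAF1 by 0.87, OAS2 by 0.79, IFIT1 by 0.68, IFIT3 by 0.67, OAS1 by 0.65, RSAD2 by 0.64 and GBP1 by 0.64. The defence and chemokine genes CFB by 1.25, S100A8 by 1.16, CCL20 by 1.03, LCN2 by 0.97, S100A9 by 0.91, CXCL1 by 0.60 and CCL2 by 0.59 were higher too, as were DUSP6 and C2CD4A, both by 0.74. CFB, S100A8, CCL20, LCN2 and S100A9 also rose in IRS-2 #1, by 0.90, 1.12, 0.60, 0.67 and 0.81, and of these only CFB passed the contrast with that clone. OAS2, IFIT1, OAS1 and C2CD4A rose in IRS-2 #1 too, by 0.80, 0.83, 0.62 and 0.62, and did not pass that contrast. IFIT3 rose there by 0.63 and passed it. The interferon-stimulated genes named here all rose in IRS-1 #20 as well, by 0.64 (OAS1) to 1.27 (IFI44L). The differences of LINC02240 (-0.68), HHIP (-0.64), INHBE (-0.64) and ADRA2A (-0.61) were lower. The clone is 1 of 4, and whether these differences belong to the clone or to its culture cannot be told apart.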

How the results depend on the processing

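No named gene that passed the test changed direction in an alternative. Of those that did not pass, PGR and ESR1 were -0.06 and 0.05 with the probe sets averaged, against 0.36 and -0.08. Without a fold threshold 4341 probe sets were higher and 2642 lower. In that setting 37 interferon-stimulated genes were higher and 0 lower, while 6 estrogen receptor targets were higher and 6 lower. At 2-fold 43 probe sets were higher and 8 lower, with 14 interferon-stimulated genes higher and 1 estrogen receptor target lower. The methods' t-test at its unadjusted p and fold gave 211 higher and 47 lower, and after Benjamini-Hochberg 98 and 15, with 16 interferon-stimulated genes and 1 estrogen receptor target. That adjustment lost 14 of the named genes that had passed, XAF1, CMPK2, GBP1, CXCL1, BHLHE40, TFF1, IGFBP5, KCNQ5, ELOVL2-AS1, INHBE, ADRA2A, GREB1, ELOVL2 and MPPED2, at adjusted p = 0.0514 to 0.184. Those from TFF1 on had fallen. The 54 named genes include others that had not passed and so could not be lost. Leaving out each array in turn gave 184 to 290 probe sets higher and 46 to 66 lower, and 95 to 290 for the difference from the other 3 clones, 49 to 124 from IRS-2 #1, 257 to 301 with IGF-I and 105 to 171 for IGF-I minus SFM. Interferon-stimulated genes that rose stayed at 23 to 24, estrogen receptor targets that fell at 3 and AhR genes that fell at 2. The replicate block gave 214 higher and 47 lower and changed no named call. Dim probe sets left out, quantile normalization, median centring, no trend and the 6-array fit gave 190 to 282 higher and 40 to 47 lower, sharing 217 to 263 of the 263 calls. Among the named genes, quantile normalization lost BHLHE40 (0.53) and BMP7 (0.54), and leaving out an array lost CXCL1 (0.57), BHLHE40 (0.55) or BMP7 (0.58). Averaging the probe sets of each gene lost SPRED2 (0.58), BMP7 (0.30), BHLHE40 (0.50), IGFBP5 (-0.24), KCNQ5 (-0.39), GREB1 (-0.44) and SUSD3 (-0.56), while median centring added TNFRSF12A (0.59). No cause of these shifts was tested.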
